A study of Mus musculus with 6 samples.

Results

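Transcripts of 10 proteins of the muscle Z-disc were followed in quadriceps muscle of tumour-bearing mice: Myoz1, Myoz3, Ky, Flnc, Actn2, Ldb3, Tcap, Myot, Nrap and Pdlim3. They are 10 of the 19057 genes that the array annotation names by a single symbol, and all 28 probes carrying their symbols were read. The set was chosen by the change of Myoz3 and Ky between muscles of RXF393-bearing and SKRC39-bearing mice, and the other members were added for their place at the Z-disc. Every difference between the tumour lines given for these genes therefore describes the values on which the set rests and tests nothing further.

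The study placed cells of the human renal cancer line RXF393 or SKRC39 under the skin of NOD-SCID mice, which lack functional T and B lymphocytes, and took quadriceps RNA at 22 days. The labels call RXF393 cells cachectic (Yes) and SKRC39 cells not (No), cachexia being the wasting of muscle and fat with a tumour. All mice shared the strain, feeding without restriction and a tumour, each condition is represented by a single cell line, ages are not given in the sources used here, and no muscle without a tumour was analysed here. RNA was extracted mouse by mouse and hybridized to 6 arrays (Illumina MouseWG-6 v2.0), read here as 1 mouse per array. For 4 of the 6 arrays the title and the characteristics point to one tumour line, which gives SKRC39 replicates 1 and 2 and RXF393 replicates 2 and 3, numbered by title. The array titled RXF_1 has characteristics naming SKRC39 cells, and the array titled SKR_3 has characteristics naming RXF393 cells, so both are shown apart and enter no comparison.

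The Z-disc is the plate at each end of a sarcomere, the contractile unit of the muscle fibre, where actin filaments of neighbouring units are anchored in opposite directions. Alpha-actinin cross-links these filaments, and a second layer of proteins (myozenins, PDZ-LIM proteins, myotilin, filamin C, telethonin) binds to alpha-actinin, titin or each other, carries load and holds signalling enzymes such as the phosphatase calcineurin. Filamin C is unfolded by load and cleared by chaperones, so the structure is renewed during use.

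The arrays differed in ways that touch every result below. Between 30.3% and 37.7% of probes were detected per array, detection meaning a deposited detection p-value below 0.05. The share was 37.73% and 33.65% on SKRC39 replicates 1 and 2, against 33.69% and 30.93% on RXF393 replicates 2 and 3. For the RXF_1-titled array it was 36.5%, and for the SKR_3-titled array 30.28%. RXF393 replicate 2 was thus level with SKRC39 replicate 2, and the lowest shares fell on RXF393 replicate 3 and the SKR_3-titled array. Whether this share bears on the changes below was not tested. Over the 17738 probes tested, log2 values on the array titled RXF_1 correlated most with SKRC39 replicate 1 (r = 0.980) and those on the array titled SKR_3 with RXF393 replicate 3 (r = 0.985). RXF393 replicates 2 and 3 correlated less with each other (0.896) than RXF393 replicate 2 did with either SKRC39 array (0.926 and 0.937). The tissue label matched its markers: 9 of 9 skeletal muscle markers (Ckm, Acta1, Myh4 and others) passed the detection filter, against 1 of 5 heart muscle markers and 1 of 8 lymphocyte markers.

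Ky was far lower with RXF393 than with SKRC39. Ky is named after the kyphoscoliosis mouse, in which its loss causes muscle degeneration, and encodes a transglutaminase-like protein that binds filamin C. Values are log2 intensities after background correction and quantile normalization. On its brightest probe (ILMN_2906855) Ky stood at 15.02 and 14.50 on SKRC39 replicates 1 and 2, and at 10.99 and 9.63 on RXF393 replicates 2 and 3. The groups lay far apart, with RXF393 replicate 3 the lowest of the 4. The change was -4.45 ± 0.50 (SE, n = 2 arrays per group), which is 21.9-fold lower (adjusted p = 0.0335, limma's moderated test with Benjamini-Hochberg adjustment over all probes tested). The array titled RXF_1 read 15.09, above both SKRC39 arrays, and the array titled SKR_3 read 9.26, below both RXF393 arrays.

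Another bright Ky probe (ILMN_2506428) gave nearly the same picture, with 14.68 and 14.24 on the SKRC39 arrays and 10.54 and 9.18 on the RXF393 arrays. Its change was -4.59 ± 0.51 (24.1-fold). In the authors' own quantile-normalized table the brightest Ky probe read 33410 and 23280 with SKRC39 and 2139 and 903.6 with RXF393, on the linear scale. A dim Ky probe was detected on 1 of the 2 SKRC39 arrays and on neither RXF393 array, at 5.13 and 5.74 against 4.87 and 4.97, and the other Ky probe was detected on no array. The dim probes lie at the floor of the array and carry little information on the size of the change. Leaving out 1 array at a time moved the Ky fold from 13.7, without RXF393 replicate 3, to 35.0, without RXF393 replicate 2.

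Promoter windows are printed for Ky, Ldb3 and Nrap, the member furthest down, a member whose 3 tested probes all had negative changes and a member whose brightest probe had a positive one. RefSeq promoters (GRCm38.p6, 250 bases before to 50 after the transcript start) were matched by symbol for 6 of the 10 members, in 8 windows. Each is written 5′ to 3′ on the strand of the gene, with motif matches in capitals.
Ky, chr9:102505888-102506187, plus strand: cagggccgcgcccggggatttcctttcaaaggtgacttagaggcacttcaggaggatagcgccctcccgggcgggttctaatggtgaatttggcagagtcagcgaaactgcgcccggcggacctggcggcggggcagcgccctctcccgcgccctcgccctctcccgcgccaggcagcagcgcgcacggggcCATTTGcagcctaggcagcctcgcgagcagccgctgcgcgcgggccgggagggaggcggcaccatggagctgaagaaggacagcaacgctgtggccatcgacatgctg
Ldb3, chr14:34588632-34588931, minus strand: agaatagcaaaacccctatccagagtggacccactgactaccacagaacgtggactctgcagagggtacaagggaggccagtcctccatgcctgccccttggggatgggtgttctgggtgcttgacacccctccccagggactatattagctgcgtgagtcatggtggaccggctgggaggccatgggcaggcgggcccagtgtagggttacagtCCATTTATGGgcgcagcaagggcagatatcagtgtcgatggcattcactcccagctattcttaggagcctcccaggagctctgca
Nrap, chr19:56389989-56390288, minus strand: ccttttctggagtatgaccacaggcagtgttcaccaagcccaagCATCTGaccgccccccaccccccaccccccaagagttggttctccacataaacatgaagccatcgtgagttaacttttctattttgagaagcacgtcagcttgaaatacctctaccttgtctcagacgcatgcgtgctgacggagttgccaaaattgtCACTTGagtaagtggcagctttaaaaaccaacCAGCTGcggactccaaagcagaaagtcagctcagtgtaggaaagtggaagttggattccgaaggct
Motifs were searched on both strands, and no matches of different motifs overlapped in the printed windows. The capitals mark an E-box (CANNTG, bound by myogenic factors) at -58 in Ky and at -206, -48 and -16 in Nrap. They also mark a CArG box at -35 in the printed Ldb3 window. Ldb3 has another window, from a different transcript start, in which the same CArG box lies at -109. An E-box is held by 72.3% of all 32851 promoter windows of this length and a CArG box by 1.63%. The MEF2 motif, held by 0.557% of windows, and the MCAT motif (CATTCC), held by 14.7%, had no match in these printed windows. A match describes the letters only.

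The 2 myozenins on the list, which tether calcineurin to alpha-actinin and filamin C in fast fibres, were both lower on the RXF393 arrays. Myoz3 (ILMN_1250504) stood at 13.72 and 13.43 on SKRC39 replicates 1 and 2 and at 10.05 and 9.57 on RXF393 replicates 2 and 3. Within each line its arrays lay close together, with an SD of 0.21 for SKRC39 and 0.34 for RXF393, and the gap between lines was many times wider. The change was -3.77 ± 0.39 (SE, n = 2 per group), which is 13.6-fold lower (adjusted p = 0.0330, limma). The array titled RXF_1 read 13.65, between the SKRC39 values, and the array titled SKR_3 read 9.36, below both RXF393 arrays. Of 2 further Myoz3 probes, 1 was detected only on SKRC39 replicate 2 and 1 on no array. The Myoz3 result thus rests on a single probe, which carries the symbol but no RefSeq accession in the annotation. The 2 further probes are annotated to the RefSeq Myoz3 transcript and read between 4.66 and 5.79 over the 6 arrays. Whether the bright probe reads that transcript was not tested. Leaving out 1 array gave folds of 11.5 to 16.05 on the bright Myoz3 probe.

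Myoz1 has 1 probe. It stood at 15.37 and 14.89 with SKRC39 and at 14.48 and 13.28 with RXF393, while the RXF_1-titled and SKR_3-titled arrays read 15.26 and 13.33. The groups did not overlap, but RXF393 replicate 2 lay closer to SKRC39 replicate 2 than to the other RXF393 array. The change of -1.25 ± 0.42 did not pass (adjusted p = 0.31, limma), and without RXF393 replicate 2 it was -1.84 and passed (adjusted p = 0.0304, in a range of 0.00663 to 1 over the alternatives).

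**Figure D1:**
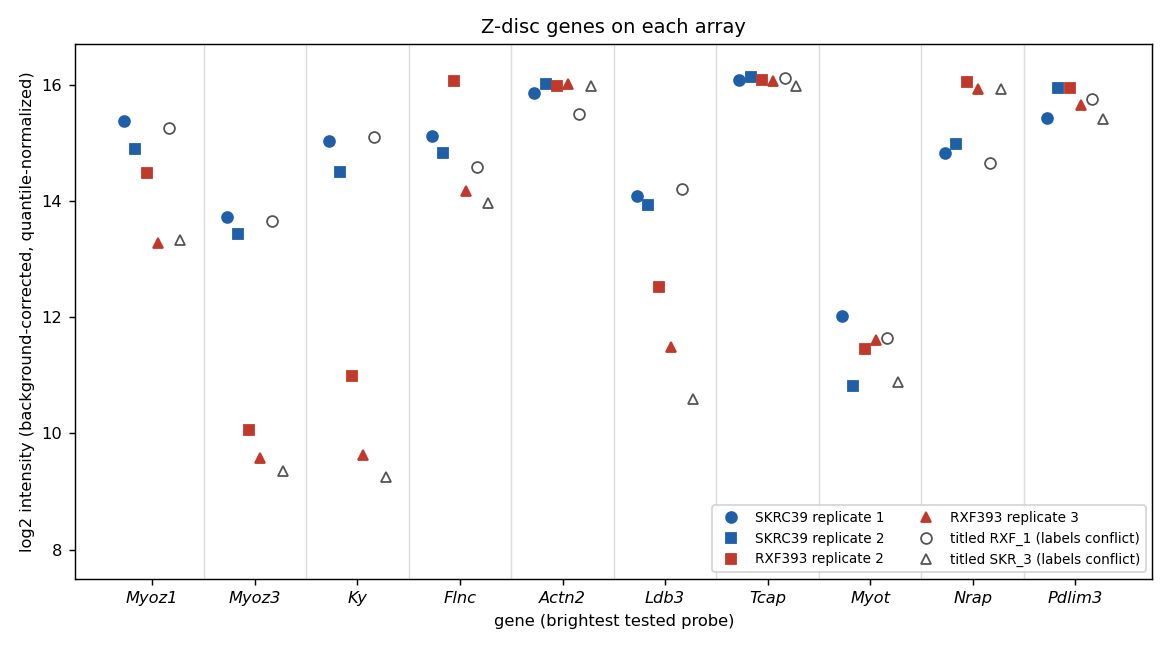
The brightest tested probe of each Z-disc gene is plotted by array, as log2 intensity on the vertical axis; filled blue points are SKRC39, filled red points RXF393, and open points the 2 arrays whose labels conflict. Ky and Myoz3 lie between 13.43 and 15.02 on the SKRC39 arrays and between 9.57 and 10.99 on the RXF393 arrays, while Tcap and Actn2 sit at the top of the range on every SKRC39 and RXF393 array. Heights of different probes are not comparable.

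Among the PDZ-LIM proteins, which bind alpha-actinin through their PDZ domain, the 3 tested Ldb3 probes all had negative changes and the 2 Pdlim3 probes differed. Ldb3 (also called Cypher or ZASP) holds the Z-disc together under load. On its brightest probe it stood at 14.08 and 13.92 with SKRC39 and at 12.52 and 11.48 with RXF393. The groups were separate, and the array titled SKR_3, at 10.59, was lower still, while the array titled RXF_1 read 14.20. The change was -2.00 ± 0.41 and did not pass (adjusted p = 0.14, limma). It passed without RXF393 replicate 2, at -2.52 (adjusted p = 0.0178), and when testing was limited to probes seen on all 6 arrays (adjusted p = 0.0463), in a range of 0.00598 to 1 over the alternatives.

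A different Ldb3 probe, annotated to another transcript, stood at 12.60 and 11.41 with SKRC39 and at 10.51 and 7.84 with RXF393, a change of -2.83 ± 0.89 (adjusted p = 0.28, limma). Another, for yet another transcript, stood at 8.11 and 6.47 against 6.13 and 4.95 and was detected on 1 of the 2 RXF393 arrays. In both, the values of SKRC39 replicate 2 lay nearer to RXF393 replicate 2 than to SKRC39 replicate 1. The remaining 3 Ldb3 probes were detected on no array.

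Pdlim3, the actinin-associated LIM protein, stood on its brightest probe at 15.43 and 15.95 with SKRC39 and at 15.95 and 15.66 with RXF393. These values overlap, and RXF393 replicate 2 was near the top of the range. On its other probe it stood at 14.58 and 13.03 with SKRC39 and at 14.10 and 10.62 with RXF393, while the RXF_1-titled and SKR_3-titled arrays read 14.35 and 10.95. Only RXF393 replicate 3 and the array titled SKR_3 were low there, and the change of -1.44 ± 1.06 did not pass (adjusted p = 0.57, limma).

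Actn2, which encodes the alpha-actinin of all fibre types, stood at 15.85 and 16.02 with SKRC39 and at 15.97 and 16.02 with RXF393 on its brightest probe. All 4 values were near the ceiling of the scanner's scale (called the top of the range below), taken as at least 80% of the highest intensity on the array, where a change can be hidden. A less bright Actn2 probe read 15.79 and 15.93 against 15.997 and 15.04. A dim one, annotated to a cDNA clone, read 8.03 and 7.74 against 8.50 and 9.46, a change of 1.09 ± 0.66 that did not pass (adjusted p = 0.51, limma). The 3 Actn2 probes thus gave values of 0.06, -0.34 and 1.09.

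Tcap encodes telethonin, which caps paired titin ends at the Z-disc. Its brightest probe stood at 16.09 and 16.14 with SKRC39 and at 16.07 on both RXF393 arrays, near the top of the range on all 6 arrays, so no fold is given. Its other probe stood at 16.06 and 16.11 with SKRC39 and at 16.09 and 14.48 with RXF393. RXF393 replicate 3 alone was low among the 4, and the array titled SKR_3 was lower, at 13.91. Both SKRC39 arrays and RXF393 replicate 2 were near the top of the range. The means read 1.745-fold apart, which did not pass (adjusted p = 0.50, limma). With values near the top in both groups, this fold is not a bound in either direction.

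Flnc and Myot, which cross-link or bundle actin filaments, overlapped between the groups. Flnc, the load-bearing filamin of striated muscle and binding partner of Ky and the myozenins, stood at 15.12 and 14.82 with SKRC39 and at 16.07 and 14.18 with RXF393. RXF393 replicate 2 was the highest of the 6 arrays, near the top of the range, and RXF393 replicate 3 was below both SKRC39 arrays. The change was 0.15 ± 0.56 (adjusted p = 0.91, limma), and it ran from -0.79 without RXF393 replicate 2 to 1.10 without RXF393 replicate 3. Its other probe was detected on no array.

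Myot encodes myotilin, which bundles actin and binds filamin C and alpha-actinin. It stood at 12.03 and 10.81 with SKRC39 and at 11.46 and 11.61 with RXF393. Both RXF393 arrays fell between the SKRC39 arrays, and the change was 0.12 ± 0.50 (adjusted p = 0.93, limma). A dim Myot probe, detected on 1 of the 2 RXF393 arrays, read 5.62 and 5.84 against 5.67 and 4.90.

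Nrap, a nebulin-related protein that serves as a scaffold in myofibril assembly and lies at the ends of myofibrils, was the only member whose brightest probe was higher on both RXF393 arrays. It stood at 14.82 and 14.97 with SKRC39 and at 16.05 and 15.93 with RXF393. The array titled SKR_3, at 15.92, was level with the RXF393 arrays, and the array titled RXF_1, at 14.65, was below both SKRC39 arrays. Since both RXF393 values lay near the top of the range, the means were at least 2.13-fold apart (log2 change 1.09 ± 0.21), which did not pass (adjusted p = 0.12, limma). It passed when testing was limited to probes seen on all 6 arrays (adjusted p = 0.0379) and with no filter on detection (adjusted p = 0.0412), in a range of 0.00350 to 1 over the alternatives.

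A further Nrap probe gave the opposite on one RXF393 array. It stood at 13.51 and 12.98 with SKRC39, at 14.20 on RXF393 replicate 2 and at 10.80 on RXF393 replicate 3, with the arrays titled RXF_1 and SKR_3 at 12.87 and 10.26. On RXF393 replicate 2 it was above both SKRC39 arrays and on RXF393 replicate 3 far below them. The dimmest Nrap probe ranged from 5.60 to 8.51 over the 6 arrays with overlapping groups. Averaged over its 3 probes, Nrap stood at -0.10 (adjusted p = 0.95, limma).

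Probes of the same gene thus disagreed on particular arrays. Of the 7 members with over 1 tested probe, 4 (Actn2, Myot, Nrap and Pdlim3) had probes in both directions, as did 35.9% of the 3456 genes on the array with over 1 tested probe. Set against its own SKRC39 mean, the lower Nrap probe stood at -2.44 on RXF393 replicate 3 and -2.98 on the array titled SKR_3, where the brightest Nrap probe stood at 1.03 and 1.02. For Pdlim3 the probes stood at -3.18 and -0.03 on RXF393 replicate 3, and for Tcap at -1.61 and -0.04. On RXF393 replicate 2 the same Pdlim3 probes stood at 0.29 and 0.26, and those of Tcap at 0.00 and -0.04. The Pdlim3 probes also parted on the SKRC39 arrays, at 0.77 and -0.26 on replicate 1 and at -0.77 and 0.26 on replicate 2. RXF393 replicate 3 and the SKR_3-titled array also had the lowest shares of probes detected, 30.93% and 30.28%. Whether probe position or RNA quality has a part was not tested.

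**Figure D2:**
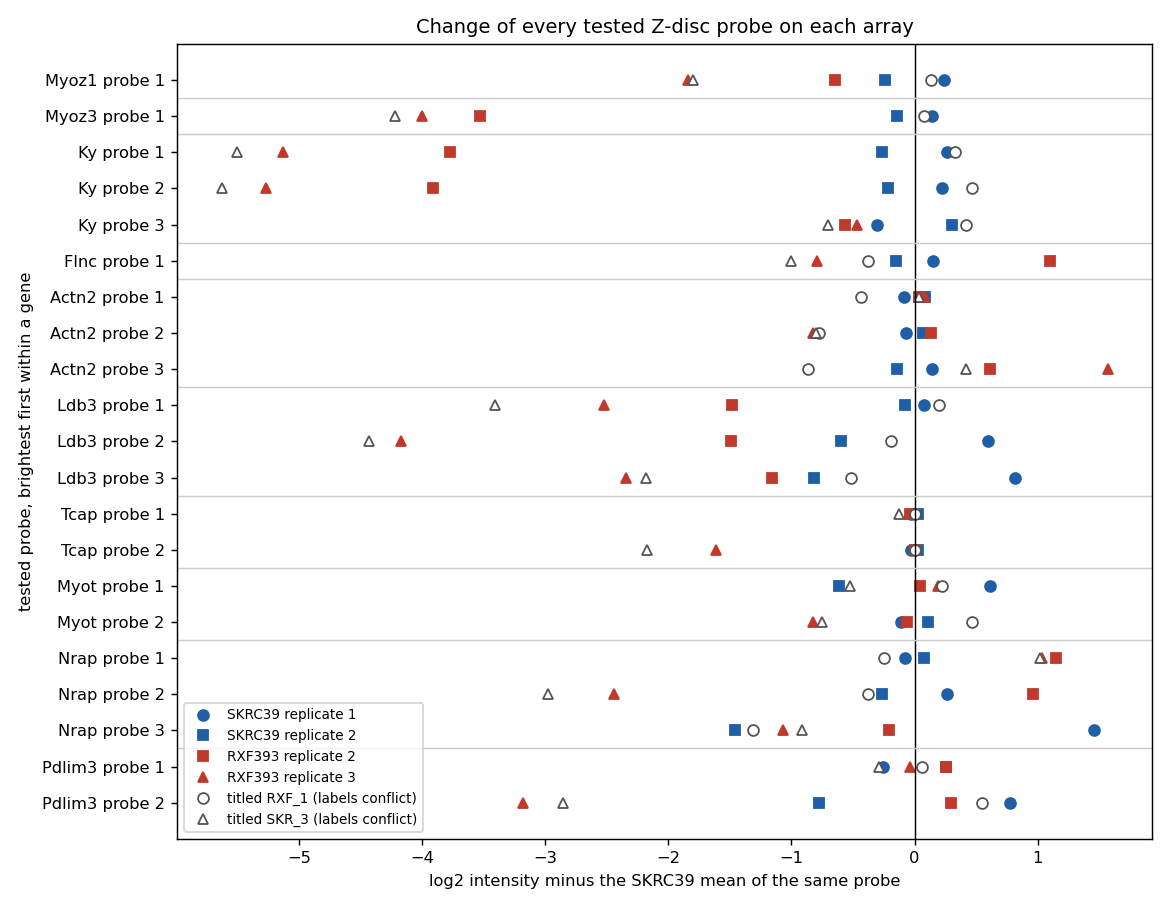
Each row is a tested probe of a Z-disc gene, brightest first within the gene, and the horizontal axis gives its log2 intensity on every array minus its SKRC39 mean. The 2 bright Ky probes lie together between -5.63 and -3.78 on the RXF393 arrays and the array titled SKR_3, whereas the 2 brightest probes of Nrap, Tcap and Pdlim3 lie apart on RXF393 replicate 3 and the array titled SKR_3.

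Counted by brightest tested probe, all 10 genes passed the detection filter. Myoz3 and Ky were past the threshold, both lower, among 10196 genes of which 0.157% were called lower and 0.196% higher. None of the members was called higher by limma, with 1, Nrap, higher at an unadjusted p under 0.05 and 4 lower (Myoz1, Myoz3, Ky and Ldb3), against 8.1% and 6.69% of all genes. In 5 members (these 4 and Tcap) both RXF393 arrays lay below both SKRC39 arrays, as in 20.6% of all genes, and in 1, Nrap, above, as in 28.1%. The Tcap values in that count all lie near the top of the range, where their order carries no information. Of the 21 tested probes 15 had a negative and 6 a positive change. The median change of the 10 genes was 0.0087, beside 0.0676 for all genes tested. It lies between the values of Tcap (-0.04) and Actn2 (0.06). Both were near the top of the range on all 4 arrays compared, where a change can be hidden. With the mean of a gene's tested probes, the median of the members was -0.54, beside 0.03 for all genes. Nearest to the threshold on the other side were Nrap and Ldb3, with adjusted p-values of 0.12 and 0.14 (limma).

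The calls of Ky and Myoz3 hold under most but not all processing. Neither passed with median scaling (adjusted p = 0.16 and 0.15), without the intensity trend in the variance (0.16 and 0.13) or with all 6 arrays grouped by title (1 and 1), where their changes shrank to -1.02 and -1.08, and Ky did not pass as the mean of its 3 tested probes (0.0698). Over the 16 alternatives their adjusted p-values ranged from 0.000603 to 1 and from 0.000433 to 1, and their changes stayed negative.

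**Figure D3:**
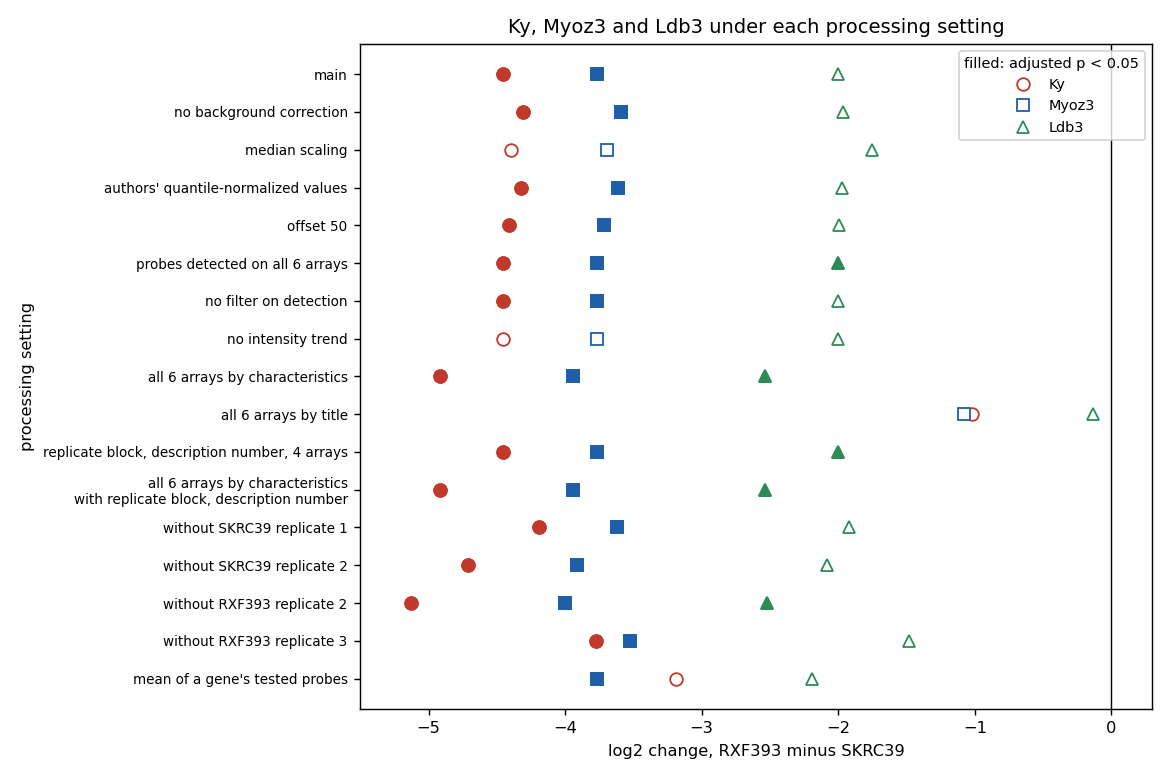
The log2 change of Ky, Myoz3 and Ldb3 between RXF393 and SKRC39 is plotted for every processing setting, with filled symbols where the adjusted p is below 0.05. Grouping all 6 arrays by title gives the values nearest to 0, at -1.02 for Ky, -1.08 for Myoz3 and -0.13 for Ldb3.

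Across the 6 arrays the members fell into different patterns. Log2 values of Ky and Myoz3 had a Pearson r of 0.994, those of Ky and Ldb3 0.976, those of Ky and Myoz1 0.954 and those of Ky and Nrap -0.957. Flnc and Myot followed Ky weakly, at 0.275 and 0.306. Because Ky and Myoz3 are high on 3 arrays and low on the other 3, each of these values mostly restates that split, and the arrays share a beadchip, per the design text, and a common normalization.

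Over the same 6 arrays, the genes most like Ky were Trp53inp2, a promoter of autophagy in muscle (r = 0.9992), Carns1, the carnosine synthase (0.9988), the phosphate exporter Xpr1 (0.9985), Smco4 (0.9984) and Aimp2, a scaffold of tRNA synthetases (0.9983). Trp53inp2 read 13.23 and 12.71 with SKRC39 and 10.66 and 9.72 with RXF393. Among the genes most like Myoz3 were Mfn2, a mitochondrial fusion protein (0.9988), Fam78a (0.9984), Stard8 (0.9968) and Cpxm1 (0.9964). The sizes varied within this group, from a change of -0.66 for Mfn2 to -4.58 for Fam78a, so a like pattern did not mean a like size.

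Of a further 34 genes of the Z-disc, 25 were tested and none passed in either direction in limma, with 5 lower and 2 higher at an unadjusted p under 0.05 (6.69% and 8.1% over all genes, here and for the lists below) and a median change of -0.22. Itgb1bp2 (melusin), a muscle chaperone-like protein that binds integrin beta1, stood at 12.83 and 12.89 with SKRC39 and at 10.22 and 8.75 with RXF393. Its groups were wide apart, but its change of -3.37 ± 0.56 missed the threshold (adjusted p = 0.0842, limma). Palld, an actin cross-linker related to myotilin, stood at -3.26 ± 1.06 and was detected on 1 of the 2 RXF393 arrays. Igfn1, known to bind Ky, lay on the other side of 0, at 2.02 ± 0.50 (adjusted p = 0.19, limma), with values of 8.68 and 9.26 against 10.98 and 10.99.

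The M-band, which joins myosin filaments in the middle of the sarcomere, was read from 13 genes. Of the 9 tested none passed, none had an unadjusted p under 0.05, and the median change was -0.18. Those with the widest changes were Lrrc39 (-0.94 ± 0.56), Myom3 (-0.92 ± 0.48) and Myom2 (-0.45 ± 0.22).

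Calcineurin, which the myozenins bind, and its NFAT targets were read from 13 genes, 12 of them tested. None passed in limma, 2 were lower and 1 higher at an unadjusted p under 0.05, and the median change was -0.11. The calcineurin regulators differed in direction: Rcan2 stood at -1.63 ± 0.39 and Rcan1 at 1.20 ± 0.38 (adjusted p = 0.18 and 0.29). For Nfatc2, detected on neither RXF393 array, only a bound can be given, at least 2.1-fold lower, and its test did not pass (adjusted p = 0.36, limma).

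Chaperones and other genes that handle filamin were read from 14 genes, 13 of them tested, with none past the threshold in limma. At an unadjusted p under 0.05, 2 were lower and 2 higher, and the median change was 0.0071. The gene at this median, Hspb6, was near the top of the range on all 6 arrays, where a change can be hidden. Hspb2, a small heat shock protein of muscle, stood at 11.67 and 11.99 with SKRC39 and at 9.58 and 8.90 with RXF393, a change of -2.59 ± 0.48 (adjusted p = 0.11, limma). Hspb1 lay on the other side, at 1.60 ± 0.34 (adjusted p = 0.14). Flna, the filamin of non-muscle cells, stood at -1.32 ± 0.69.

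**Figure D4:**
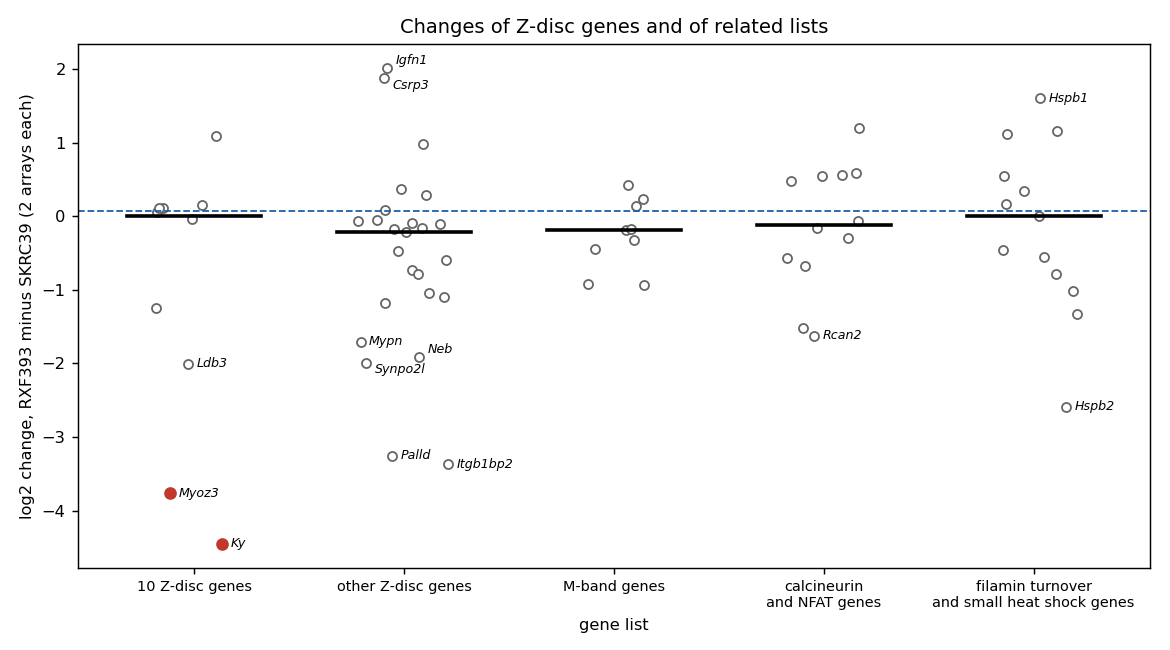
The log2 change of each tested gene is plotted by list, with a short black line at the list median, red points past the adjusted threshold of 0.05 and a dashed line at the median of all genes tested. Only Ky and Myoz3 are past the threshold, and the medians of the 5 lists lie between -0.22 and 0.0087. Those of the 10 Z-disc genes and of the filamin turnover list rest on genes near the top of the range.

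Markers of other cells and fibres were read beside these genes. Intensities summed over the 9 skeletal muscle markers were 515300 and 527900 with SKRC39 and 504100 and 497000 with RXF393. Of the 9, 5 were near the top of the range on all 4 arrays. Over the 6 slow-fibre markers, all tested, the sums were 131400 and 116600 against 30660 and 85550, and 3923 on the array titled RXF_1, where Ky and Myoz3 were high. The 9 fibroblast markers, all tested, summed to 30360 and 33630 against 19750 and 25310. This sum mostly follows Dcn, the brightest of them, whose change was -0.45 ± 0.25. All 9 had negative changes, with a median of -1.50. Neutrophil markers, 4 of 10 tested, summed to 255.3 and 583.3 against 2081 and 6306, while Camp, Cxcr2, Elane, Ltf, Mpo and Ngp were detected on no array. The 3 erythroid markers tested of 7 summed to 67440 and 26630 against 78910 and 74760. This sum mostly follows Hba-a1, which was near the top of the range on 5 of the 6 arrays. The other erythroid markers tested, Alas2 and Slc4a1, had changes of 2.61 ± 0.53 and 3.65 ± 0.67. None of these genes passed the threshold in limma, and at an unadjusted p under 0.05 the counts were 3 slow-fibre and 4 fibroblast markers lower, and 4 neutrophil and 2 erythroid markers higher. The part of these cells in the Z-disc values was not tested, and in whole muscle fewer fibres of a type and less RNA per fibre cannot be told apart.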

How the data were processed

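Both deposited tables were used. In one, the authors deposited each probe's intensity before normalization, linear, and beside it the detection p-value, per the file headers. In the other, intensity had been quantile-normalized by the authors with GenomeStudio (Gene Expression module 1.9.0), as the series' design text says. Whether scanner background was subtracted is not given in the sources used here. The design text gives 3 mice, read here as 3 per line with 1 mouse per array.

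The platform annotation gives 1 symbol for 34885 of 45281 probes, several for 18 and none for 10378. Gene IDs of 34807 matched RefSeq (GRCm38.p6).

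Following neqc in limma 3.58.1 (R 4.3.3), background was fitted by normexp using the detection p-values, 16 was added, the 6 arrays were quantile-normalized, and log2 was taken. The offset shrinks fold changes of dim probes. The number of arrays limits precision. Probes detected on at least 2 arrays were tested with lmFit and eBayes with an intensity trend, adjusted over all 17738 probes, threshold 0.05, and checked on simulated data. A gene is its brightest tested probe. The members and lists were chosen with earlier results of these data known. Named genes are all 10 members, per list those past the threshold or else the 3 with the largest absolute change, and the 5 most correlated with Ky and with Myoz3, of which 1 is not reported here. Marker lists not described in the report gave no call: macrophage (8 tested, median change -0.20), endothelial (7, -0.10), adipocyte (4, -0.56), nerve and Schwann cell (3, 0.21) and satellite cell (3, 0.21).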

Additional observations from a re-analysis of the deposited data

How the results depend on the processing

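Myoz3 and Ky, the 2 members called lower, became 0 with median scaling, 0 without the intensity trend and 0 with all 6 arrays by title, 4 by characteristics (Ky, Ldb3, Myoz1 and Myoz3), 4 by characteristics with the replicate block 1 with the mean of a gene's probes and 3 (with Ldb3) among probes detected on all 6 arrays; leaving out 1 array gave 2 to 4. None was called higher, but 1 (Nrap) was among probes detected on all 6 arrays, with no filter on detection, and by characteristics with or without the block. Over all genes, 16 lower and 20 higher became 0 and 0 in limma with median scaling, without the trend and by title (where 1536, 1350 and 19 genes had an unadjusted p under 0.05, against 1508), 53 and 94 among probes detected on all 6 arrays, 796 and 1072 by characteristics, and 1464 and 1650 with the block; the authors' values gave 12 higher. Leaving out 1 array gave 14 to 277 lower and 6 to 173 higher. These fits leave 1 array in a group, assumed to vary like the other. With the description number as a replicate block on the 4 arrays, 167 genes were lower and 189 higher, and Ldb3 joined Ky and Myoz3; deviations of same-numbered arrays correlated at 0.514 over probes, but with 2 pairs the numbers are not shown to pair the mice. The other Z-disc list, with 0 calls, reached at most 10 lower (by characteristics with the block). Ky, Myoz3, Ldb3 and Myoz1 had negative changes under all 16 alternatives, while Flnc, Actn2, Tcap, Myot, Nrap and Pdlim3 each took both signs, Nrap only through the mean of its probes. The causes of these shifts between settings were not tested. The median of all genes moved by over 0.1 in no scaling alternative. Values near the top of the range or near background limit Tcap, Actn2, Nrap, Flnc and Pdlim3 (1 RXF393 array each for the last 2) and the dim probes.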

Other observations

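Some further Z-disc genes, chosen after their values were seen, had wide spreads within a tumour line. Neb, the giant nebulin of the actin filament, stood at 9.0004 and 6.21 on SKRC39 replicates 1 and 2 and at 6.45 and 4.92 on RXF393 replicates 2 and 3. Synpo2l stood at 9.24 and 6.75 against 6.79 and 5.21, and Mypn, the myopalladin gene, at 10.39 and 8.63 against 9.63 and 5.96. In these 3 genes the groups overlapped, and Neb and Synpo2l were each detected on only 1 of the 2 RXF393 arrays. Csrp3, the muscle LIM protein, had the reverse order, at 12.76 and 13.81 against 14.30 and 16.02 (the last near the top of the range), a change of 1.88 ± 0.59 that did not pass (adjusted p = 0.28, limma). On the array titled RXF_1 Csrp3 read 10.49, the lowest of the 6 arrays, and on the array titled SKR_3 it read 15.13.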
